A study of Mus musculus with 6 samples.

Results

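The 10 genes described here encode the machinery by which a cell shows fragments of its own proteins on MHC class I molecules: *H2-K1*, *H2-D1*, *B2m*, *Tap1*, *Tap2*, *Tapbp*, *Psmb8*, *Psmb9*, *Psmb10* and *Nlrc5*. They were chosen by symbol as members of this pathway, and all 10 were found among the 19446 genes measured. RNA-seq had been performed on cultured cardiac fibroblasts (CFs), the cells that lay down the extracellular matrix of the heart, in 3 wild-type (WT) and 3 CharmeKO libraries. Both groups came from C57BL/6J mice labelled 5 weeks old. CharmeKO mice carry a polyadenylation signal inserted into the locus of *Charme*, a long non-coding RNA of cardiomyocytes. Both groups of cells had grown out of atrial tissue pieces pooled from littermates, on fibronectin in IMDM with serum, and were used at early passage. The culture protocol gives a range of ages around that of the labels. The source labels do not say which litter or day a replicate number stands for, so the p-values below measure the spread between these libraries. Native CFs were not analysed here.

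Class I molecules are built from a heavy chain (*H2-K1* or *H2-D1* in C57BL/6 mice), the invariant light chain *B2m* and a peptide. The proteasome cuts cytosolic proteins into peptides, the transporter of *Tap1* and *Tap2* carries them into the endoplasmic reticulum, and tapasin (*Tapbp*) holds the empty heavy chain beside the transporter until a peptide is bound. Interferons raise these genes in most cell types, including fibroblasts, and exchange the catalytic proteasome subunits for *Psmb8*, *Psmb9* and *Psmb10*, the immunoproteasome. *Nlrc5* is a coactivator that is recruited to a conserved enhanceosome upstream of class I heavy chain and *B2m* genes.

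The promoters of both heavy chains, *B2m* and *Tap1* are shown as those of the molecule itself and of its transporter, whose levels are given further on. RefSeq promoter windows (GRCm38.p6) of 300 bases, 250 of them before the start site, were matched for 8 of the 10 genes. *Tap2* and *Nlrc5* were not matched. The 250 bases before the start site are given 5′ to 3′ on the gene's strand for *H2-K1* (chr17:34000348-34000597, minus strand), *H2-D1* (chr17:35262844-35263093, plus strand), *B2m* (chr2:122147437-122147686, plus strand) and *Tap1* (chr17:34187306-34187555, plus strand). Capitals mark matches, on either strand, to 4 short motifs: GGGANNNNCC for NF-kB sites, AANNGAAA for interferon regulatory factor sites, TGACG for CREB/ATF sites and CCAAT for NF-Y sites. These motifs were chosen after the sequences had been read, and overlapping matches of the first motif on both strands run together.
H2-K1: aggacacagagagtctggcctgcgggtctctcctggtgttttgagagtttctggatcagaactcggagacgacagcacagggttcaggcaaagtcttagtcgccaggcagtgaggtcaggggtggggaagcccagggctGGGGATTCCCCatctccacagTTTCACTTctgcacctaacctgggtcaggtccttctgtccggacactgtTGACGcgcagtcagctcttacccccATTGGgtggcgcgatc
H2-D1: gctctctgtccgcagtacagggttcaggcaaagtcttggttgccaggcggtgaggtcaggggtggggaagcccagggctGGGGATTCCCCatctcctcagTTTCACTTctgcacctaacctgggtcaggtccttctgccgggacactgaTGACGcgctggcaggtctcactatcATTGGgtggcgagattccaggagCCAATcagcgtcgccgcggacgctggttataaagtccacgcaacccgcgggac
B2m: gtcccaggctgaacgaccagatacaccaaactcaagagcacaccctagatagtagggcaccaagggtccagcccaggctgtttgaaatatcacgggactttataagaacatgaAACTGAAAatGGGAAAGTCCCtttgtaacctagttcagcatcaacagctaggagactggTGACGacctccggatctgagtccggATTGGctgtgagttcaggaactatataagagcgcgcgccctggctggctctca
Tap1: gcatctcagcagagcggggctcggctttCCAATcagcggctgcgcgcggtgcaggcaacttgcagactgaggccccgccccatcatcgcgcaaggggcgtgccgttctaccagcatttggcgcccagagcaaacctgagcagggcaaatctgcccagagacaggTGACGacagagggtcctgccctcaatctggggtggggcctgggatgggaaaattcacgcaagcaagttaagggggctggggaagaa

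Motifs were counted over the whole windows of 300 bases. *H2-K1*, *H2-D1* and *B2m* held all 4 motifs. Of 32851 promoter windows in the RefSeq table, 94 (0.286%) did so, while single motifs were common: 20.7% held the NF-kB motif, 23.9% the interferon regulatory factor motif, 20.8% TGACG and 37.4% CCAAT. The NF-kB and interferon regulatory factor motifs lay side by side in all 3 genes, in reverse order in *B2m*. Where the windows of *H2-K1* and *H2-D1* could be aligned, 161 of 177 columns (91.0%) were identical. The *Tap1* window held TGACG and CCAAT only, as did that of *Psmb9*, which is read from the opposite strand and shares 275 bases with it. The *Tapbp* window held CCAAT only, and those of *Psmb8* and *Psmb10* held none of the 4. These matches describe letters in a window and say nothing about binding in CFs.

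The levels of the 10 genes spanned a wide range. Levels of different genes are compared as normalised reads per kilobase of exon, where a normalised read is a read divided by the size factor of its library (1 read is worth 0.87 to 1.1 normalised reads). *B2m* was first, at 28653 ± 9040.2 per kilobase (mean ± SD over the 6 libraries), higher than 99.8% of the 15948 genes tested. The heavy chains lay far below their light chain, with 2786 ± 1339 for *H2-D1* and 1288 ± 549.7 for *H2-K1*, and *Tapbp* lay between them at 1417 ± 499. *Tap2* (509.7 ± 140.1), *Psmb10* (322 ± 69.8) and *Tap1* (256 ± 99.9) followed. The lowest were *Psmb8* (61.3 ± 39.1), *Nlrc5* (33.3 ± 16.9) and *Psmb9* (15.8 ± 13.6). In this order the library ranges of neighbours overlapped, except between *B2m* and *H2-D1* and between *Tap1* and *Psmb8*. *Psmb9* had 15 to 150 reads per library and was the least precisely counted of the 10, and *B2m* had 14298 to 35046. *H2-K1* and *H2-D1* share 9.63% and 12.8% of their 50-base exonic words with other genes, so reads from such stretches can be lost from their counts. *Tapbp* overlaps *Zbtb22* on the same strand, where reads are not assigned to either gene.

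The comparison of CharmeKO with WT asked whether loss of *Charme* changes this machinery in cultured CFs. None of the 10 genes differed between the genotypes beyond the spread between libraries. The mean differences were small beside that spread, and the WT and CharmeKO values overlapped for each of the 10. The genes are given in the order of their roles, each as normalised reads per library.

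Among the chains of the class I molecule itself, *H2-K1* (chromosome 17, 33996017 to 34000347, GRCm38, minus strand) had 4782, 3371 and 2548 normalised reads in WT 1, 2 and 3 and 4914, 5658 and 1426 in CharmeKO 1, 2 and 3. Both the highest and the lowest library were CharmeKO. *H2-D1* (chromosome 17, 35262730 to 35267499, plus strand) had 11145, 5193 and 3947 in WT and 10728, 8724 and 3369 in CharmeKO. Its order over the numbers 1, 2 and 3 was the same in both genotypes, from high to low. *B2m* (chromosome 2, 122147686 to 122153083, plus strand) had 29509, 23669.8 and 19943 in WT and 27839, 34455 and 12436 in CharmeKO. As with *H2-K1*, the extremes were CharmeKO 2 and CharmeKO 3, and the libraries numbered 3 were the lowest of each genotype. The group means ± SD (n = 3) of *H2-K1* were 3567 ± 1130.1 in WT and 3999 ± 2259 in CharmeKO, and those of *H2-D1* were 6762 ± 3847 and 7607 ± 3804. For *B2m* they were 24374 ± 4822 and 24909.8 ± 11298. The log2 differences (CharmeKO minus WT, on log2 of normalised reads + 1) were -0.017 (SE 0.55) for *H2-K1*, 0.15 (SE 0.549) for *H2-D1* and -0.075 (SE 0.41) for *B2m*.

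Of the transporter, *Tap1* (chromosome 17, 34187553 to 34197225, plus strand) had 1081, 2086 and 1012 normalised reads in WT 1, 2 and 3 and 1049, 2132 and 1064 in CharmeKO 1, 2 and 3. Its partner *Tap2* (chromosome 17, 34203527 to 34216321, plus strand) had 1601, 2418 and 1548 in WT and 1875, 2721 and 1399 in CharmeKO. In both genes the libraries numbered 2 stood above the other 4, and the same-numbered libraries of *Tap1* lay almost on top of each other. *Tapbp* (chromosome 17, 33915899 to 33929292, plus strand) had 4099.7, 8128 and 3623 in WT and 5124, 6350.0 and 3527 in CharmeKO. Here too both libraries numbered 2 were the highest, with WT 2 above CharmeKO 2. The log2 differences between the genotypes were 0.020 (SE 0.396) for *Tap1*, 0.084 (SE 0.302) for *Tap2* and -0.024 (SE 0.367) for *Tapbp*.

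The immunoproteasome subunits were examined next. *Psmb8* (chromosome 17, 34197721 to 34201454, plus strand), which replaces the catalytic subunit *Psmb5*, had 96.5, 327 and 146 normalised reads in WT 1, 2 and 3 and 137, 418 and 118 in CharmeKO 1, 2 and 3. *Psmb9* (chromosome 17, 34181987 to 34187764, minus strand), which replaces *Psmb6*, had 31.5, 83.3 and 16.5 in WT and 25.0, 147 and 43.5 in CharmeKO. Both were highest in the libraries numbered 2 of either genotype. *Psmb10* (chromosome 8, 105935735 to 105938444, minus strand), which replaces *Psmb7*, had 597, 595 and 381 in WT and 589, 700.0 and 431 in CharmeKO, and was lowest in the libraries numbered 3. The log2 differences between the genotypes were 0.19 (SE 0.648) for *Psmb8*, 0.61 (SE 0.854) for *Psmb9* and 0.13 (SE 0.289) for *Psmb10*. That of *Psmb9* was the largest of the 10 and the least certain, and its same-numbered pairs differed by -0.32, 0.82 and 1.35.

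The coactivator *Nlrc5* (chromosome 8, 94434356 to 94527272, plus strand) had 412, 273 and 161 normalised reads in WT 1, 2 and 3 and 361, 419.8 and 67.8 in CharmeKO 1, 2 and 3. The lowest library was again CharmeKO 3 and the highest CharmeKO 2. The group means ± SD (n = 3) were 282 ± 125 in WT and 283 ± 189 in CharmeKO. *Nlrc5* had a log2 difference of -0.27 (SE 0.755). The means of the reads were almost equal while the log2 difference was below 0, because it averages the logarithms.

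**Figure D1:**
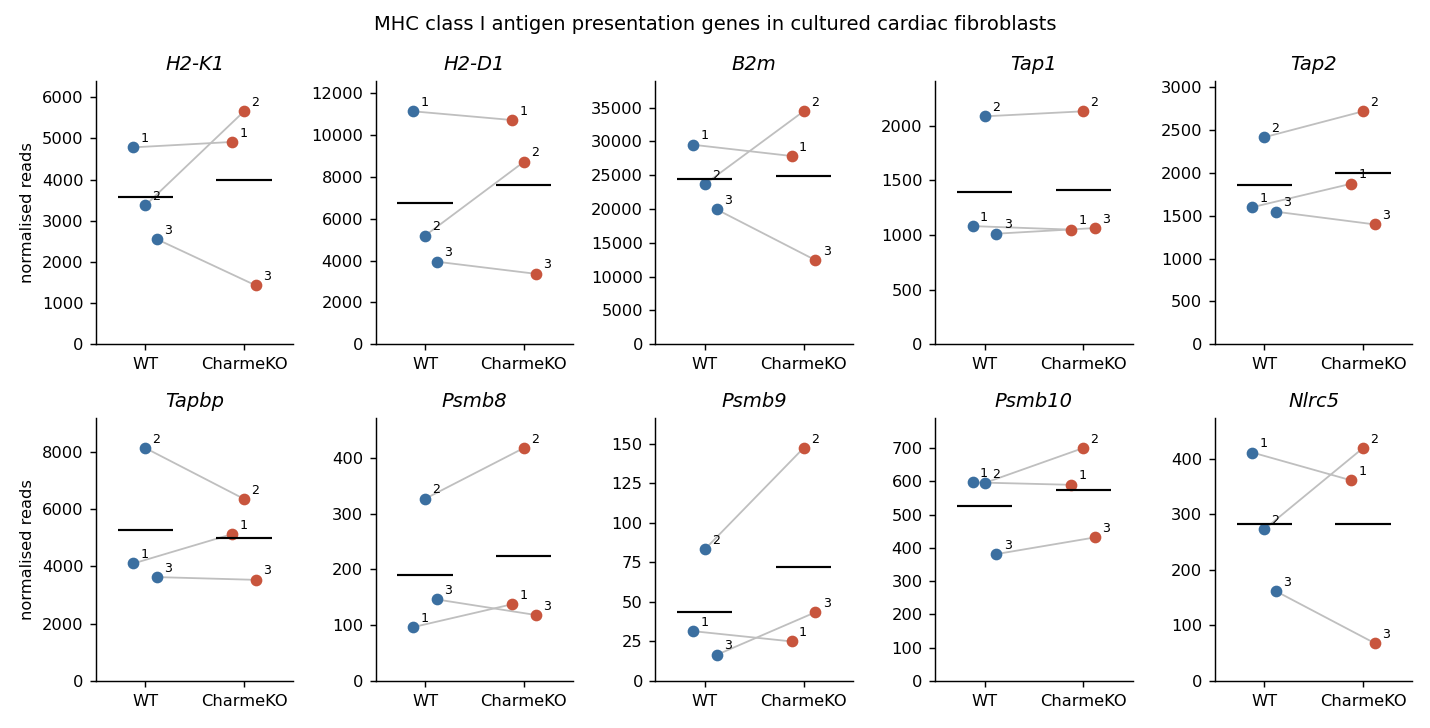
Normalised reads (y axis, linear from 0, a scale of its own in each panel) of the 10 genes in the 3 WT (blue) and 3 CharmeKO (red) libraries, with the replicate number beside each point, grey lines joining equal numbers and black bars at the group means. WT and CharmeKO points overlap in all 10 panels, and libraries numbered 2 are the 2 highest in *Tap1*, *Tap2*, *Tapbp*, *Psmb8* and *Psmb9*.

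By limma, 0 of the 10 genes had an adjusted p under 0.05 (adjusted p = 0.9999 for each), against 0% of all 15948 genes tested. At an unadjusted p under 0.05 there were 0 of the 10, where 143 genes (0.897%) passed. The values of 0 of the 10 failed to overlap between the genotypes, against 4.11% of all genes. edgeR on the recovered reads also called 0 of the 10 (0% of all genes, 0.991% at an unadjusted p), and DESeq2 called 0 of the 10 against 0.0502% of all genes. With the replicate number as a block, limma again gave 0 of the 10 (0% of all genes, and 5.37% at an unadjusted p, which 0 of the 10 reached), and DESeq2 0 of the 10 against 0.401%. No gene of the 10 was higher in CharmeKO in all 3 same-numbered pairs, as 16.4% of all genes were, and none was lower in all 3, as 14% were.

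The 95% intervals of the log2 differences show what the fit without the replicate block could have missed. They were narrowest for *Psmb10* (-0.56 to 0.83), *Tap2* (-0.64 to 0.81) and *Tapbp* (-0.90 to 0.86). For *H2-K1* the interval ran from -1.33 to 1.30, for *H2-D1* from -1.16 to 1.47 and for *B2m* from -1.06 to 0.91. It was widest for *Psmb9* (-1.43 to 2.66). With the replicate number as a block, the standard errors of all 10 genes were smaller. That of *Tap1* went from 0.396 to 0.091, the smallest of the 10, and that of *Psmb9* from 0.854 to 0.434. The median log2 difference of the 10 genes was 0.052, beside 0.0022 over all genes tested. On the deposited scale 6 of the 10 lay above 0 (50.4% of all genes did) and 4 below, but with plain library totals 8 lay above 0, and with edgeR and DESeq2, which average reads and not logarithms, 9 did. No direction is therefore given for the group.

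**Figure D2:**
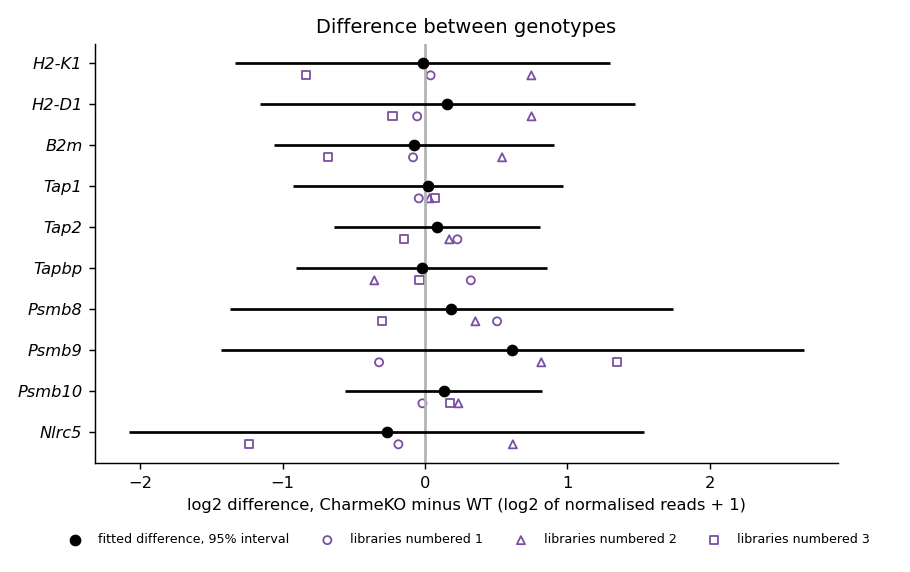
Log2 difference between CharmeKO and WT (x axis, log2 of normalised reads + 1) for the 10 genes. Filled points show the fitted difference, bars its 95% interval without the replicate block, and open symbols the 3 same-numbered pairs. All 10 intervals include 0, and no gene has its 3 pairs on one side of 0.

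Ratios within a library are free of its size factor, apart from the 1 added to each value, which weighs most on genes with few reads. The composition of the machinery was therefore compared as 5 log2 ratios. Each had an exact two-sided permutation test whose smallest possible p is 0.1. The ratio of *Psmb8* to *Psmb5* ran from 0.0561 to 0.341 over the 6 libraries and differed between the genotypes by -0.0059 (exact permutation p = 1). The ratio of *Psmb9* to *Psmb6* ran from 0.0055 to 0.0424 and differed by 0.38 (exact permutation p = 0.7). With 10 added to each value in place of 1, it differed by 0.27. The ratio of *Psmb10* to *Psmb7* ran from 0.142 to 0.274 and differed by 0.038 (exact permutation p = 0.9). Each of these 3 ratios was highest in the libraries numbered 2, and the mRNA of each induced subunit stayed below that of the constitutive subunit in every library. *H2-K1* to *H2-D1* ran from 0.424 to 0.649 and differed by -0.17 (exact permutation p = 0.6), so that *H2-D1* was the more abundant heavy chain throughout by normalised reads. *Tap1* to *Tap2* ran from 0.56 to 0.863 and differed by -0.064 (exact permutation p = 0.8). The adjusted p over the 5 ratios was 1 for each by the exact test.

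The libraries did differ from one another, and most of the spread lay between the replicate numbers. The spread between the highest and the lowest library was 8.49-fold for *Psmb9*, 6.11-fold for *Nlrc5*, 4.3-fold for *Psmb8*, 3.96-fold for *H2-K1* and 3.31-fold for *H2-D1*. It was 2.77-fold for *B2m* and between 1.83-fold (*Psmb10*) and 2.3-fold (*Tapbp*) for the other 4, beside a median of 2.11-fold over all genes tested. Summed over the 10 genes, replicate number held 84.5% of the sum of squares of the log2 values, genotype 3.1% and the remainder 12.4% (the number has 2 degrees of freedom and the genotype 1). Over all genes tested these shares were 67.7%, 10.6% and 21.7%. The share of the replicate number was highest for *Tap1* (99.7%), then *Psmb8* (93.4%), *Tap2* (93.0%) and *Psmb10* (92.1%), and lowest for *B2m* (72.1%).

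**Figure D3:**
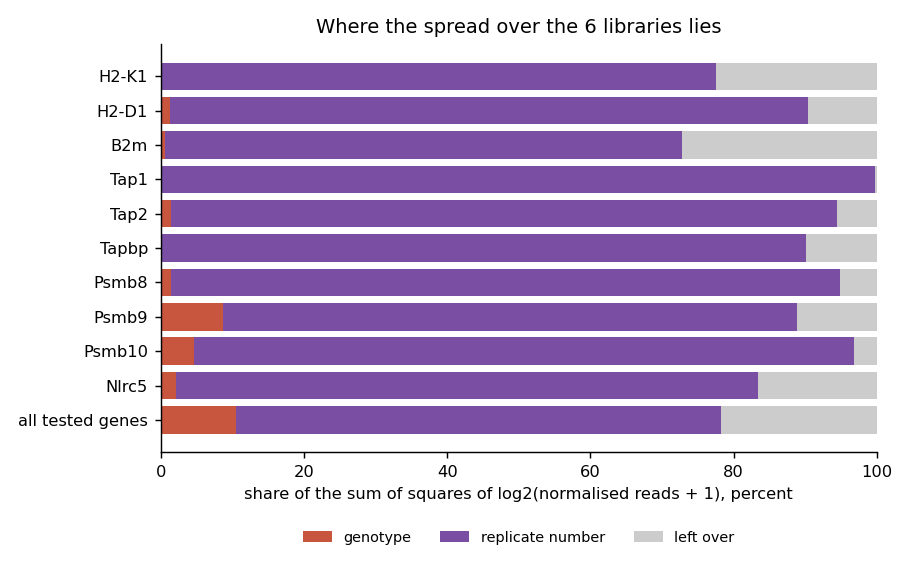
Share of the sum of squares of log2(normalised reads + 1) over the 6 libraries (x axis, percent) that lies with genotype (red), replicate number (purple) or neither (grey), for the 10 genes and summed over all genes tested. The replicate number holds 72.1% to 99.7% in the 10 genes, beside 67.7% over all genes.

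A moderated F test of the replicate number, with genotype in the model, called 1 of the 10 genes, *Tap1* (limma adjusted p = 0.0361, edgeR adjusted p = 0.0412). limma called 8.65% of all genes and edgeR 4.11%, so 1 of 10 is near the background. At an unadjusted p under 0.05 there were 9 of the 10, all but *B2m*, where 38.5% of all genes passed. By edgeR there were 8 of the 10, where 36.9% passed. The limma adjusted p was 0.0568 for *Psmb8*, 0.0586 for *H2-D1*, 0.0587 for *Tap2* and 0.162 for *B2m*. The call of *Tap1* was lost without WT 1, WT 2, CharmeKO 1 or CharmeKO 2, as were the calls of all genes. Without CharmeKO 3 or WT 3 more of the 10 were called, as more of all genes were. Such fits leave 1 library for a number.

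The 10 genes followed the numbers in more than 1 way, a description made after their values had been seen. In *Tap1*, *Tap2*, *Tapbp*, *Psmb8* and *Psmb9*, 5 of the 10, both libraries numbered 2 lay above the other 4, which held for 16.1% of all genes. In *H2-K1*, *H2-D1*, *B2m*, *Tap2*, *Tapbp*, *Psmb10* and *Nlrc5*, 7 of the 10, both libraries numbered 3 lay below the other 4, which held for 9.07% of all genes. Only *Tap2* and *Tapbp* had both features.

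**Figure D4:**
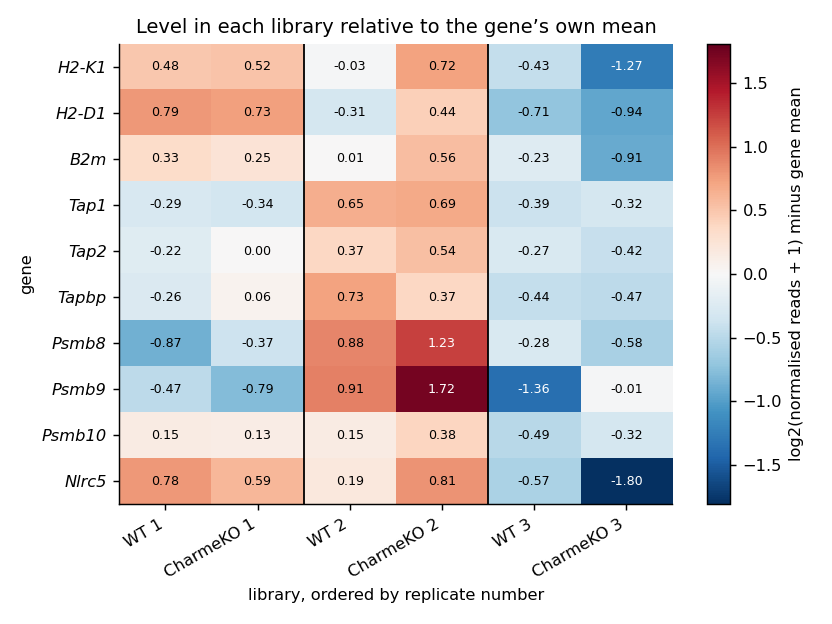
Level of each of the 10 genes (rows) in each library (columns, ordered by replicate number), as log2(normalised reads + 1) minus the gene's own mean over the 6 libraries, red above and blue below the mean. *H2-K1*, *H2-D1*, *B2m* and *Nlrc5* are lowest in the libraries numbered 3, down to -1.80 for *Nlrc5* in CharmeKO 3, while *Psmb8* and *Psmb9* are highest in those numbered 2, up to 1.72 for *Psmb9* in CharmeKO 2.

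The mean of the 10 centred log2 values was 0.041, 0.35 and -0.52 in WT 1, 2 and 3 and 0.080, 0.75 and -0.70 in CharmeKO 1, 2 and 3. Among genes of no list, those whose centred values came closest to this mean were *Rab20*, a small GTPase of the endocytic pathway (root mean square difference of 0.053 log2 units over the 6 libraries), *Mertk*, a receptor for apoptotic cells on phagocytes (0.08), and *Gpr146* (0.11). *Upk1a* and *Ropn1l* followed (0.13 each). A gene with the same level in every library would have had 0.492.

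Other class I heavy chains and class I-like genes were read from a list of 18, of which 11 could be tested. By limma 0 were called between the genotypes, 6 lay above and 5 below 0, and their median log2 difference was 0.0043. *H2-T23*, the non-classical heavy chain Qa-1, had 1976, 2453 and 889 normalised reads in WT 1, 2 and 3 and 2163, 2121 and 1125 in CharmeKO 1, 2 and 3, lowest in the libraries numbered 3 as its classical relatives were. It was called between the replicate numbers (limma adjusted p = 0.0453), as was *Cd1d1* (limma adjusted p = 0.044), a lipid-presenting molecule that was highest in the libraries numbered 2 (338 and 498). *Fcgrt*, the neonatal Fc receptor, had the lowest p between the genotypes of this list, with a log2 difference of 0.29 (SE 0.176).

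The chaperones and enzymes that assist loading spread less over the libraries. Of 7 loading partners, 0 were called by limma, and the median log2 difference was 0.018. *Canx* (calnexin), which folds new heavy chains, had 26658, 25859 and 30151 normalised reads in WT 1, 2 and 3 and 25109, 25606 and 24803 in CharmeKO 1, 2 and 3, and its groups did not overlap (as in 4.11% of all genes), with a log2 difference of -0.13. *Calr* (calreticulin) and *Pdia3* (ERp57), which sit with tapasin in the loading complex, had log2 differences of 0.17 and 0.14. *Tapbpl*, a second peptide editor, had 0.018 and *Erap1*, which trims peptides, -0.033. The median range of the 7 over the libraries was 0.49 log2 units, beside 1.6 for the 10 genes and 1.07 for all genes tested.

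The constitutive proteasome core summed to 1214, 809 and 958 CPM (reads relative to the library total) in WT 1, 2 and 3 and to 1289, 1006 and 997 in CharmeKO 1, 2 and 3, highest in the libraries numbered 1. *Psmb5* had 1736, 961 and 1360.1 normalised reads in WT 1, 2 and 3 and 1929, 1319 and 1329 in CharmeKO 1, 2 and 3. All 14 constitutive core genes lay above 0 in the genotype comparison (50.4% of all genes did), but by 0.02 to 0.24 log2 units only, and limma called 0 of them. This held under each of the 3 scalings and with edgeR and DESeq2, all on the same 6 libraries. The genes also moved together with the replicate number, which held a median of 89.8% of their sum of squares (73.8% over all genes). limma called 4 of the 14 between the numbers (8.65% of all genes). The median log2 difference of the 14 was 0.12, and 7 of the 14 were higher in CharmeKO in all 3 pairs (16.4% of all genes). The proteasome activator subunits *Psme1* and *Psme2*, which interferon gamma also raises, had log2 differences of 0.34 (SE 0.308) and 0.11 (SE 0.151).

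Regulators of the class I genes were examined in 2 lists, interferon receptors and regulators (17 tested) and NF-kB and promoter factors (12 tested), and limma called 0 of either between the genotypes. *Irf1*, a transcription factor that binds class I promoters, had 271, 924 and 549 normalised reads in WT 1, 2 and 3 and 282, 959.5 and 785 in CharmeKO 1, 2 and 3. It was highest in the libraries numbered 2, as *Tap1* and *Psmb8* were, and was called between the replicate numbers (limma adjusted p = 0.0379). *Rfx5*, a subunit of the RFX complex of the enhanceosome, had 491, 1029 and 806 in WT and 506, 1124 and 945 in CharmeKO (limma adjusted p = 0.0415 between the numbers). Both were lowest in the libraries numbered 1, where the heavy chains were high. The genes of interferon beta and interferon gamma, *Ifnb1* and *Ifng*, have no row in the table.

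Interferon-induced genes outside the pathway were read for comparison. Of 27 tested, limma called 0 between the genotypes, with a median log2 difference of -0.24, and 22 lay below 0 on the deposited scale and 21 with plain library totals. The lowest p was that of *Oas2*, an antiviral enzyme, with 190.1, 710.02 and 274 normalised reads in WT 1, 2 and 3 and 165, 156 and 53.9 in CharmeKO 1, 2 and 3. Its log2 difference was -1.57 (SE 0.646) and its limma adjusted p 0.9999. The interferon-induced genes summed to 815, 798 and 406 CPM in WT 1, 2 and 3 and to 795, 458 and 450 in CharmeKO 1, 2 and 3. CharmeKO 2, where 8 of the 10 class I genes were highest, thus lay below WT 2. The libraries numbered 1 were close, and CharmeKO 3 lay above WT 3.

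The fibroblast label was examined with 12 markers, all of them present, which summed to 28201 to 55878 CPM in WT and 36504 to 45662 in CharmeKO. The sum does not show how single markers varied. Their median range over the libraries was 1.78 log2 units, beside 1.6 for the 10 class I genes and 1.07 for all genes tested. Other cells that could carry class I genes were looked for in the same way. In bulk RNA, fewer cells of a type and less RNA per cell cannot be told apart. Of 21 macrophage and haematopoietic markers, 17 were in the table, and the T cell markers *Cd3e*, *Cd8a* and *Cd4* have no row. The 17 summed to 239, 129 and 48.5 CPM in WT 1, 2 and 3 and to 511, 349.7 and 22.6 in CharmeKO 1, 2 and 3, so they too were lowest in the libraries numbered 3. *Lyz2* (12791 and 10470 normalised reads in CharmeKO 1 and 2, 4919 in WT 1) weighed most on this sum except in CharmeKO 3. CharmeKO 2 also lay above WT 1 in *Itgb2*, *C1qa* and *C1qc*. It lay below WT 1 in the other markers tested, such as *Cd68* (562 against 913). The part of these markers in the pattern of the class I genes was not tested. In CharmeKO 3, *Ptprc* (CD45) and *Itgam* had 0 reads, which allows up to 3 reads each, but *Csf1r* had 329.6, *Lyz2* 278, *Itgb2* 124 and *Cd68* 93.1 normalised reads there. In WT 1, *Ptprc* had 172 reads.

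MHC class II genes, endothelial and cardiomyocyte markers were summed likewise. Of 10 class II genes, 5 were in the table and summed to 15.9 to 20.4 CPM in WT and 7.71 to 22.99 in CharmeKO. *H2-Aa* and *Ciita*, the class II counterpart of *Nlrc5*, have no row, and *Cd74* had 1 to 14 reads. Of 11 endothelial markers, 8 were in the table and summed to 62.2 to 94.5 in WT and 31.2 to 148 in CharmeKO, highest in CharmeKO 2. Among them *Flt1* had 2416, 3125 and 3847 normalised reads in WT 1, 2 and 3 and 1404, 5591 and 1200.3 in CharmeKO 1, 2 and 3. It made most of the sum in every library, so the sum describes *Flt1* more than the other markers. *Egfl7* (107) and *Esam* (19.7) were also highest in CharmeKO 2, but *Kdr* (31.5), *Tek* (5.90) and *Cdh5* (25.6) were not. *Cdh5* had 0 reads in WT 2 and CharmeKO 3. Of 9 cardiomyocyte markers, 4 were in the table and summed to 3.43 to 13.9 in WT and 3.95 to 18.5 in CharmeKO. Their part in the result was not tested either. limma called 0 genes of any of these lists between the genotypes.

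**Figure D5:**
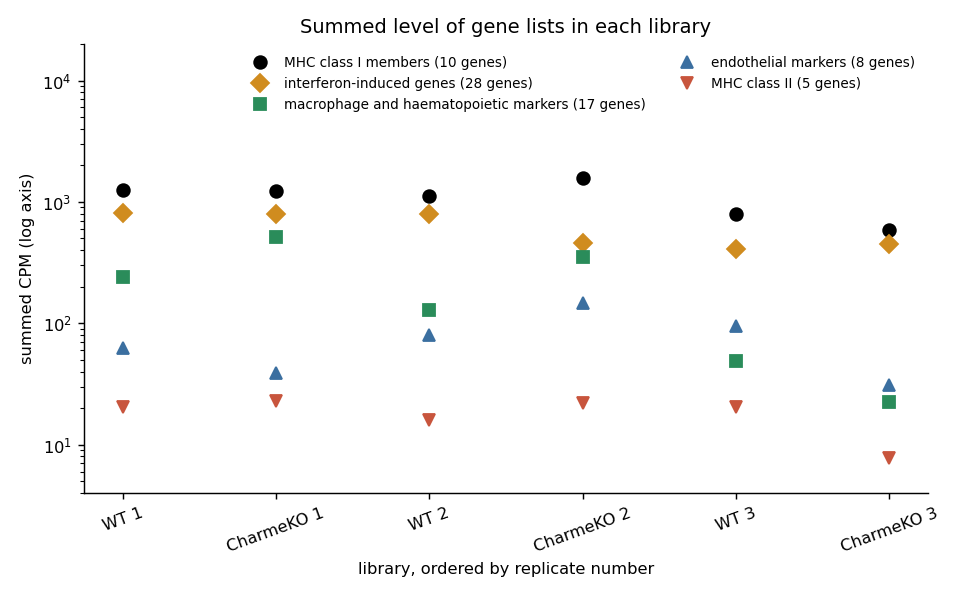
Summed CPM (reads relative to the library total, y axis, log scale) in each library, ordered by replicate number, of the 10 class I genes (black circles), interferon-induced genes (yellow diamonds), macrophage and haematopoietic markers (green squares), endothelial markers (blue triangles) and MHC class II genes (red triangles). The class I sum lies between 587 and 1577, a 2.69-fold range, while the macrophage sum runs from 22.6 to 511, a 22.6-fold range. *Flt1* makes most of the endothelial sum in every library, and *Lyz2* is the largest part of the macrophage sum except in CharmeKO 3.

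The feature taken to be *Charme*, by inference from its name in the table, was nearly silent: WT 1 held 5 of its reads, WT 2 held 15 and WT 3 held 11, against 0, 6 and 3 for CharmeKO 1, 2 and 3. It is too close to 0 in both groups to serve as a check of the genotype labels in these cells.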

How the data were processed

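Polyadenylated RNA of the 6 libraries had been sequenced by the study with a strand-specific kit. The authors aligned reads with STAR, counted them per gene on the reverse strand over an Ensembl annotation to which *Charme* had been added, dropped rarely read genes and used DESeq2 for normalisation. Their notes name GRCm39, and the coordinates given here are those of GENCODE M21 (GRCm38). What they deposited is a read signal: each count over the DESeq2 size factor of its library. Whole reads were recovered from 100% of the 116676 values (tolerance 1e-06), with 38330019 to 46797446 reads per library. Counting limits cover counting error only, since reads without molecular identifiers are not independent molecules.

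Genes reaching 10 reads in 2 or more libraries (15948, all 10 class I genes among them) were tested with limma 3.58.1 (trend, log2 of value + 1, Benjamini-Hochberg adjustment, two-sided), in R 4.3.3. edgeR 4.0.16 and DESeq2 1.42.0 on the recovered reads were alternatives, with other pseudocounts, filters, scalings, a replicate block and each library left out. The fits were tested on simulated data. Whether equal numbers pair the libraries was checked by correlating their deviations from the group means across genes (r = 0.762, 0.514 and 0.217, all above 0.1), so they were taken as pairs. The pair numbered 3 is not singled out by these correlations, since WT 2 and CharmeKO 3 gave 0.222. They were computed on the same libraries as the shares and the F test of the replicate number, so they are no independent evidence for pairs. The genes and lists were chosen with earlier results of these data known. Named were the 10 genes, *Charme*, fixed partners and regulators, up to 3 genes of each other list with the lowest p, and the 5 genes of no list most like the mean of the 10. Other genes, such as *Itgam*, *Csf1r*, *Lyz2*, *Cd68*, *Cdh5*, *Cd74*, *H2-Aa* and *Cd1d1*, were named after their values had been seen. Promoters come from RefSeq (GRCm38.p6), and figures were drawn with matplotlib 3.10.9. Some genes that the lists hold are not reported here.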

Additional observations from a re-analysis of the deposited data

How the results depend on the processing

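The count of class I genes called between CharmeKO and WT was 0 under all 11 other settings and in the 6 fits without 1 library. Over all genes it moved from 0 to 8 with DESeq2 and to 64 with DESeq2 and the replicate block. The block changed no call among the 10 genes (limma with the block called 0 genes). No call was possible in the ratios, with or without the block. Their smallest possible p is 0.1 by the exact permutation test and 0.25 by an exact test that flips the signs of the 3 pairs. The median log2 difference of the 10 genes was 0.052 in the main fit and ran from 0.048 to 0.12 under the 11 other settings. Signs turned, without any call, for *H2-K1* (0.018 with plain library totals, 0.17 with edgeR, 0.16 with DESeq2), *Tapbp* (0.010 with plain library totals), *B2m* (0.034 with edgeR, 0.028 with DESeq2) and *Nlrc5* (0.0061 with edgeR, 0.00019 with DESeq2). Leaving out each library in turn gave ranges of -0.38 to 0.61 for *H2-K1*, -0.17 to 0.66 for *H2-D1*, -0.37 to 0.36 for *B2m*, -0.32 to 0.35 for *Tap1*, -0.17 to 0.31 for *Tap2*, -0.25 to 0.33 for *Tapbp*, -0.38 to 0.67 for *Psmb8*, -0.095 to 1.22 for *Psmb9*, -0.083 to 0.32 for *Psmb10* and -0.74 to 0.57 for *Nlrc5*, and -0.27 (without CharmeKO 2) to 0.44 (without CharmeKO 3) for their median. The extremes of *H2-K1*, *B2m* and *Nlrc5* came without these same libraries, and the highest values of *Psmb8* and *Psmb9* without WT 2. The ratios ranged from -0.67 to 0.70 for *Psmb8*/*Psmb5*, -0.36 to 1.08 for *Psmb9*/*Psmb6*, -0.19 to 0.34 for *Psmb10*/*Psmb7*, -0.37 to -0.050 for *H2-K1*/*H2-D1* and -0.15 to 0.090 for *Tap1*/*Tap2*. Genes called between the replicate numbers were 1379, 655 with edgeR, and from 0 (without WT 1, WT 2, CharmeKO 1 or CharmeKO 2) to 5888 (without WT 3) with a library left out. The class I genes among them were 1, and from 0 to 7. Such fits leave 1 library for a number. The cause of these moves was not tested. *Psmb9*, with 15 to 150 reads, is the gene that depth limits most.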
